A study of Mus musculus with 9 samples.

Results

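Macrophages grown from mouse bone marrow and given transforming growth factor beta (TGF-β) at 0.02 ng/ml were set against the same kind of macrophages cultured alone, with no neurons in either culture. The comparison takes 6 of the 9 libraries of the series, 3 with TGF-β and 3 from monoculture, chosen by the labels' treatment and column names. The other 3 libraries, macrophages kept with dorsal root ganglion (DRG) neurons, serve here for a shared estimate of spread and for values side by side. All donors carried the genotype CX3CR1-gfp/+, a reporter allele at the locus of the fractalkine receptor, and all marrow was differentiated with M-CSF at 50 ng/ml. The time label is 5 d for every library, and the labels leave unsettled whether it covers differentiation, treatment or both. The cells were bulk cultures sorted on CD11b and CD64, and 10 ng of RNA went into each strand-marking SMART-Seq library. The design text names 3 mice as the source, without saying whether the same 3 served each condition. If they did, the libraries of the groups are paired, and the p-values below, from an unpaired test, leave that pairing out.

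TGF-β binds the receptor TGFBR2, which engages TGFBR1, and the active pair phosphorylates SMAD2 and SMAD3, which join SMAD4 and enter the nucleus. Among the genes SMADs switch on are inhibitors of the same pathway, such as Smad7, Skil and Pmepa1. In the brain, TGF-β is known to be needed for the gene programme of microglia, the resident macrophages, which includes Cx3cr1, P2ry12, Tmem119, Fcrls and the C1q complement genes.

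Values are read counts scaled to a common library size (normalized counts) from 73.4, 91.9 and 135.6 M reads (M, 1e6) in monoculture 1 to 3 and 151.6, 55.9 and 46.8 M in TGF-β 1 to 3, and 1 read is worth 0.752 to 2.27 normalized counts among these 6. The sort antigen genes Itgam and Fcgr1, the M-CSF receptor gene Csf1r and the pan-macrophage gene Cd68 were at 113361, 10969, 82746 and 83425 on average over 3 monoculture libraries. With TGF-β their log2 fold changes were -0.34, -0.25, 0.04 and 0.01, none of them called. Sorting and M-CSF select for such cells, so these levels do not test the macrophage label. Fibroblast markers summed to 62.0 to 145 in monoculture and 39.8 to 153 with TGF-β, against 8321 to 11838 in co-culture. Of 19 fibroblast markers, 4 passed the filter on these 6 libraries, and none was called by limma, edgeR or DESeq2 (0 at an unadjusted p under 0.05). The Schwann cell receptor gene Ngfr and the myelin gene Mal were listed at 0 in all 6. Of the 17 Schwann and satellite glia markers, however, only 2 were at 0 in all 6. That list summed to 69109 to 85954 in monoculture and 58821 to 62209 with TGF-β, above the 21229 to 27670.5 of co-culture. As 9 of the 17 passed the filter on these 6 libraries, this sum can be set by few abundant members. Y-linked and Xist reads marked monoculture 1 and TGF-β 1 as male and the other 4 libraries as female. In the female libraries of this comparison the 4 Y-linked genes examined were at 0, apart from 2.30 normalized counts of Eif2s3y in monoculture 2. The noncoding RNA gene Yam1 took 2.82% of monoculture 1 and 2.62% of TGF-β 2, against 0.505 to 1.00% of the other 4.

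Levels also moved with transcript length, unequally between libraries. Protein-coding genes above a mean of 100 were split into 5 bins by exon length. The median log2 fold change was 0.09 in the bin of shortest transcripts (255 to 2595 bases) and -0.06 in the longest, and 49 genes were called higher and 19 lower in the former against 27 and 70 in the latter. TGF-β 2 deviated most, with medians of 0.15 and -0.11 in the shortest and longest bin. TGF-β 1 ran the same way, from 0.05 to -0.04. The other 4 libraries ran the opposite way: monoculture 1, 2 and 3 from -0.03, -0.03 and -0.07 to 0.02, 0.03 and 0.04, and TGF-β 3 from -0.07 to 0.05. The trend thus set TGF-β 1 and 2 apart from monoculture and TGF-β 3. Deviations were taken from the mean of the libraries compared, so the fall in TGF-β 2 by itself moves the others the opposite way. The part of the trend in the calls was not tested beyond removing it. With a length trend taken out of each library, 209 genes were called higher and 234 lower, and 366 of the 412 genes called without that step were called again.

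**Figure D1:**
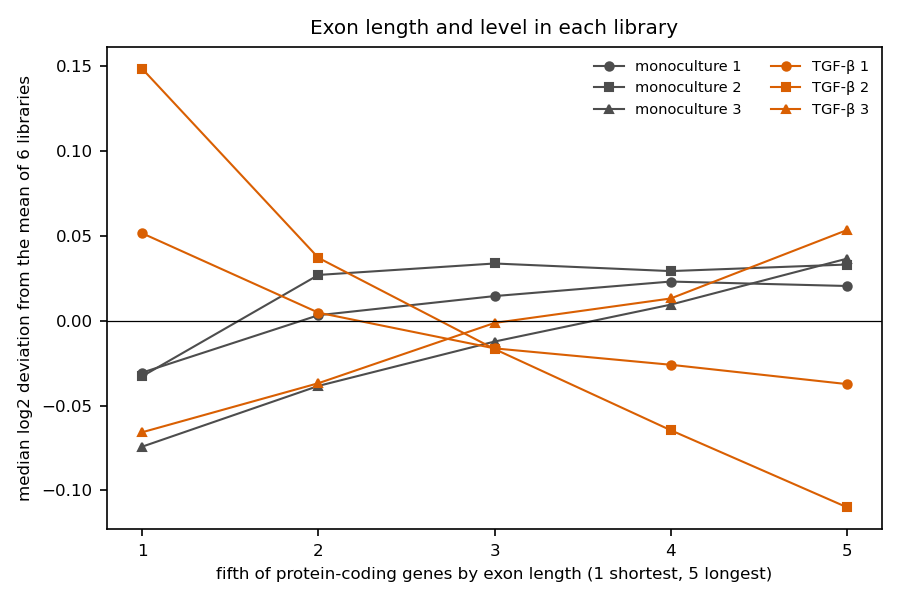
Median log2 deviation of each library from the mean of the 6 libraries (y axis) for 5 bins of protein-coding genes by exon length (x axis, 1 shortest, 5 longest), with 1 line per library. TGF-β 2 runs from 0.15 to -0.11, while the 3 monoculture libraries and TGF-β 3 go up from the shortest to the longest bin.

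Of 16328 genes tested with limma, 412 (2.52%) passed an adjusted p under 0.05 (limma on log2(value + 10), Benjamini-Hochberg over all tested genes; fold changes below are on that scale, given ± SE), 185 higher (1.13%) and 227 lower (1.39%). An unadjusted p under 0.05 was reached by 2443 genes (15.0%). DESeq2 on the recovered reads called 897 genes and edgeR 390. In 89.0% of tested genes the log2 fold change lay within 0.5 of 0. The median change was 0.83 among the higher genes and -0.58 among the lower ones, against -0.01 over all tested genes. Changes above 2-fold were reached by 64 higher and 47 lower genes, above 4-fold by 13 and 1, and above 8-fold by 3 (Pmepa1, Cx3cr1 and Fcrls) and 0. Among the 4082 most abundant genes (means from 4608) 40 were called higher and 119 lower, and among the next 4082 there were 59 and 53. Among the 412 genes were 180 protein-coding genes higher and 224 lower, and 3 lincRNA genes higher. Of the tested genes, 1006 passed the filter only through the co-culture libraries, and none of those was called. All 412 had non-overlapping groups, as did 2761 (16.9%) of all tested genes.

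**Figure D2:**
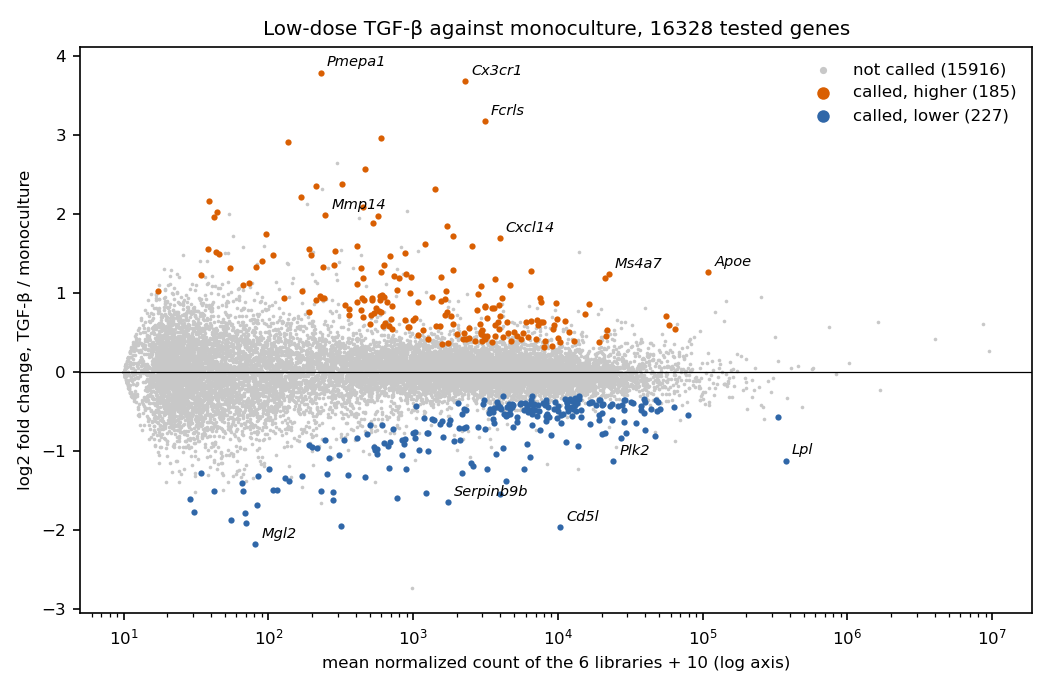
Log2 fold change of TGF-β over monoculture (y axis) against the mean normalized count of the 6 libraries plus 10 (x axis, log scale) for 16328 tested genes, with 185 called higher in orange and 227 called lower in blue. Pmepa1, Cx3cr1 and Fcrls stand above 3, and no called gene is below the -2.19 of Mgl2.

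Within the groups, some libraries lay nearer to the other group than the rest. TGF-β 3 was the TGF-β library closest to monoculture for 112 of the 185 higher genes and 127 of the 227 lower ones. Among monoculture libraries, monoculture 2 was closest to TGF-β for 89 of the higher genes and monoculture 3 for 126 of the lower ones. With TGF-β 3 left out, 935 genes were called, 496 higher and 439 lower, and 385 of the 412 were among them. Leaving out TGF-β 1 gave 92 higher and 73 lower, TGF-β 2 125 and 123, and monoculture 1, 2 and 3 gave 156 and 112, 145 and 104, and 143 and 150. Without both monoculture 1 and TGF-β 2, an alternative added after the data were seen, 96 genes were called higher and 54 lower. The call held in all 6 fits that left out 1 library for 148 genes, 83 higher and 65 lower.

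Genes of the TGF-β pathway itself were read first, beginning with its inhibitors. Of 18 tested feedback inhibitors 4 rose and none fell (22.2% called; median log2 fold change 0.02). Pmepa1, whose membrane protein takes SMADs away from the receptor, stood at 19.5, 36.8 and 6.97 in monoculture and 539, 503 and 209 with TGF-β. All TGF-β values were above all monoculture values, and TGF-β 3 had the lowest of them (log2 fold change 3.79 ± 0.43, adjusted p = 0.00331). Skil, a nuclear repressor of SMADs, stood at 4850.0, 5776 and 4549 in monoculture and 8309, 7965 and 7340.2 with TGF-β, again without overlap (log2 fold change 0.64 ± 0.10, adjusted p = 0.00384). The inhibitory SMAD gene Smad7 stood at 567, 639 and 521 in monoculture and 933, 833 and 761 with TGF-β (log2 fold change 0.54 ± 0.12, adjusted p = 0.0267). Ldlrad4, another membrane inhibitor of SMAD signalling, rose by 0.74 on the log2 scale (adjusted p = 0.0131). Spsb1, a SOCS-box gene that limits the receptor, was at 156, 165 and 179 in monoculture and 229, 229 and 225 with TGF-β, groups that did not overlap without passing the test (log2 fold change 0.43 ± 0.14, adjusted p = 0.145). Bambi, Ski, Smurf2, Tgif1 and Smad6 had log2 fold changes of -0.03, 0.02, 0.03, 0.15 and -0.08. The call was lost for Smad7 without monoculture 1 or 3 or TGF-β 1 or 2 (adjusted p up to 0.158) and Ldlrad4 without monoculture 1 or TGF-β 1 (adjusted p up to 0.0661). Without both monoculture 1 and TGF-β 2, the libraries with the largest Yam1 shares, none of the 18 was called, with a log2 fold change of 3.62 for Pmepa1 (adjusted p = 0.0746).

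Among 31 tested genes known as SMAD targets, 5 rose and 2 fell (22.6% called; median 0.11). Mmp14, a membrane metalloproteinase that cuts matrix and other proteases, was at 90.9, 99.0 and 77.5 in monoculture and 364, 419.6 and 361 with TGF-β (log2 fold change 1.99 ± 0.14, adjusted p = 6.80e-06). Hpgd, which inactivates prostaglandins, was at 89.3, 119.7 and 71.3 in monoculture and 513, 669 and 407 with TGF-β (log2 fold change 2.38 ± 0.22, adjusted p = 7.82e-05). Runx3, a transcription factor of immune cells, was at 74.7, 59.9 and 43.4 in monoculture and 431, 378 and 236 with TGF-β (log2 fold change 2.35 ± 0.23, adjusted p = 0.000151). In none of these 3 genes did the groups overlap. Tgm2, a protein crosslinking enzyme, and Itgb5, an integrin subunit, rose by 0.94 and 0.73. Gadd45b, a stress gene, and Eng, a co-receptor for the TGF-β family, fell (log2 fold changes -0.78 and -0.56; adjusted p = 0.0131 and 0.0117). The targets Thbs1, Junb and Tgfbi had 0.07, -0.05 and 0.21, none passing the test. The test was no longer passed by Tgm2 without TGF-β 1 or 2 (adjusted p up to 0.0664), Gadd45b without monoculture 2 or 3 or TGF-β 1 or 2 (adjusted p up to 0.0659) and Eng without monoculture 2 or TGF-β 1 (adjusted p up to 0.0876).

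Of 17 tested receptors and SMADs, 2 rose and 1 fell (17.6%; median -0.13). The type I receptor gene Tgfbr1 was at 7287, 7251 and 6073 in monoculture and 14108, 12211 and 11515 with TGF-β (log2 fold change 0.88 ± 0.11, adjusted p = 0.000744). The signal transducer gene Smad3 rose slightly (log2 fold change 0.35 ± 0.09, adjusted p = 0.0487) and the activin receptor gene Acvr1b fell slightly (log2 fold change -0.35 ± 0.09, adjusted p = 0.0485). Tgfbr2, Smad2 and Smad4 had log2 fold changes of 0.16, -0.05 and -0.23 and were not called. Of 14 tested ligands, carriers and activators 1 was called, the latent TGF-β carrier gene Ltbp1, which fell from a low level (74.7, 113 and 69.0 in monoculture and 13.5, 35.0 and 31.8 with TGF-β; log2 fold change -1.40 ± 0.33, adjusted p = 0.0400). The ligand gene Tgfb1 was at 35506, 37659 and 33652 in monoculture and 32783, 31132 and 33862 with TGF-β, with overlapping groups (log2 fold change -0.13). None of 8 Id and BMP target genes was called by limma, edgeR or DESeq2, and 0 had an unadjusted p under 0.05 (median 0.03). Only 5 of the 8 passed the filter on the 6 libraries compared, so the other 3 could show little here. The threshold was missed by Smad3 without monoculture 1, 2 or 3 or TGF-β 1 or 2 (adjusted p up to 0.152), Acvr1b without monoculture 1, 2 or 3 or TGF-β 1 or 2 (adjusted p up to 0.207) and Ltbp1 without monoculture 1, 2 or 3 or TGF-β 1 or 2 (adjusted p up to 0.189).

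Homeostatic microglia genes were the list with the most calls. Of 31 tested members 16 rose and none fell (51.6%, against 2.52% of all tested genes), with a median of 0.58. Cx3cr1, the receptor of the neuronal chemokine fractalkine, was at 312, 321 and 309.9 in monoculture and 4340.1, 5072 and 3238 with TGF-β. The monoculture values were almost equal and every TGF-β value was far above them (log2 fold change 3.68 ± 0.16, adjusted p = 1.59e-07, 12.8-fold). Reads of the reporter and the intact allele of Cx3cr1 cannot be told apart in this table. Fcrls, an Fc receptor-like gene typical of microglia, was at 546, 756 and 552 in monoculture and 5828, 6014 and 4988 with TGF-β (log2 fold change 3.17 ± 0.12, adjusted p = 9.09e-09, 9.02-fold). Olfml3, a secreted protein of microglia, was at 115, 161 and 93.8 in monoculture and 1236, 1329 and 616 with TGF-β, with TGF-β 3 again the lowest of its group (log2 fold change 2.96 ± 0.28, adjusted p = 0.000405). In bulk RNA, more cells with a transcript and more of it per cell cannot be told apart.

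Smaller steps were seen for other microglia genes. P2ry12, the ADP receptor of microglial processes, was at 773, 689.5 and 777 in monoculture and 1568, 1249.9 and 1343 with TGF-β (log2 fold change 0.88 ± 0.11, adjusted p = 0.000544). Its neighbour on chromosome 3, P2ry13, rose by 0.93, and the lysophospholipid receptor gene Gpr34 by 1.88. Gpr84, a receptor of medium-chain fatty acids, rose by 1.00 and the protease inhibitor gene Serpine2 by 1.52 from a mean of 12.4. Ltc4s, which makes leukotriene C4, rose by 0.96. Tmem119, a marker of microglia against other macrophages, stayed low at 52.0, 9.21 and 17.0 in monoculture and 16.5, 26.2 and 40.9 with TGF-β, with overlapping groups (log2 fold change 0.20, adjusted p = 0.893). Trem2, Selplg, Bin1 and Gas6 had 0.07, -0.13, 0.07 and 0.26, and Sall1, the transcription factor of microglia, was listed at 0 in all 6 libraries. Across the fits that left out 1 library, 13 to 16 members rose, and 12 did without both monoculture 1 and TGF-β 2. No call remained for Serpine2 without monoculture 3 or TGF-β 1 or 2 (adjusted p up to 0.0639) and Mertk without TGF-β 1 (adjusted p = 0.0507).

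**Figure D3:**
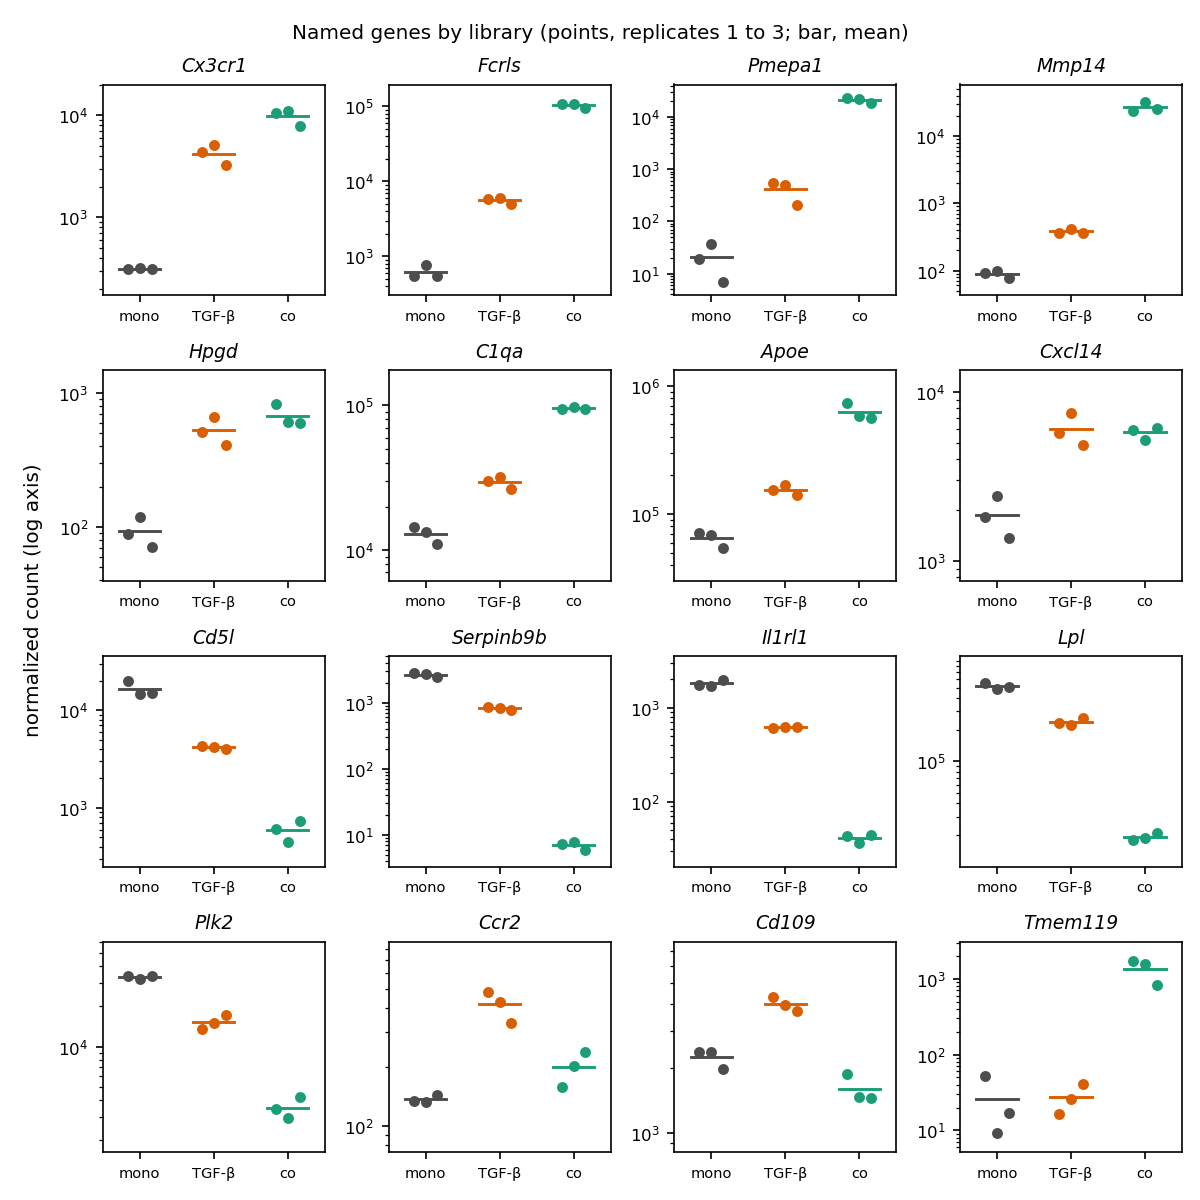
Normalized counts (y axis, log scale) of 16 genes in each library of monoculture, TGF-β and co-culture (x axis), with a point per replicate and a bar at the mean. Cx3cr1, Fcrls and Pmepa1 are higher with TGF-β in every library, Lpl and Cd5l lower, and Tmem119 overlaps between monoculture and TGF-β.

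Genes for the capture of complexes and dying cells moved upward in part. The 3 chains of complement C1q all rose: C1qa was at 14532, 13380.3 and 11017 in monoculture and 29812, 32079 and 26427 with TGF-β (log2 fold change 1.19 ± 0.11, adjusted p = 6.26e-05), and C1qb and C1qc rose by 0.54 and 0.70. They were the 3 called genes of 19 complement genes tested (15.8%; median 0.06). Axl, a receptor for dying cells, was at 718, 1221 and 693 in monoculture and 2356, 3794 and 2502 with TGF-β (log2 fold change 1.72 ± 0.24, adjusted p = 0.00538), and its relative Mertk rose by 0.62. With Itgb5 these were 3 of 19 clearance genes called (15.8%), none of them lower. The inhibitory Fc receptor gene Fcgr2b was at 1911, 1656 and 2027 in monoculture and 3819, 3354 and 3875 with TGF-β (log2 fold change 0.98 ± 0.11, adjusted p = 0.000350), while the activating receptor gene Fcgr1, a sort antigen, was not called (log2 fold change -0.25). Cd33, a lectin that binds sialic acids, was at 1055, 1327 and 1392 in monoculture and 4011, 3321 and 4043 with TGF-β (log2 fold change 1.59 ± 0.12, adjusted p = 2.00e-05). The pathogen-sensing lectin gene Clec4n rose by 1.20. These were the 2 called of 34 genes listed for receptor signalling linked to activating or inhibitory tyrosine motifs, their own or those of a partner chain (5.88%).

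The Ms4a genes, a cluster of small membrane proteins on chromosome 19, gave 5 higher and none lower of 9 tested (55.6%; median 0.76). Ms4a7 was at 13974, 11846 and 14038 in monoculture and 36239, 32302 and 26132 with TGF-β (log2 fold change 1.24 ± 0.12, adjusted p = 8.66e-05). Ms4a6b, Ms4a6c and Ms4a6d rose by 1.09, 0.94 and 0.65, and Ms4a4a by 0.91. The call was lost for Ms4a4a without monoculture 1 or 2 or TGF-β 1 or 3 (adjusted p up to 0.163). How reads shared by these close copies were assigned is not given in the sources used here. Aif1, the calcium-binding protein IBA1, rose by 1.03, and with Mertk it was the called pair among 15 genes of macrophage identity. In that list Lyz2 (lysozyme) and Emr1 (F4/80, now Adgre1) had 0.56 and -0.39, values that missed the threshold (adjusted p = 0.0607 and 0.0880).

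Of 18 chemoattractant receptors 3 rose (16.7%; median 0.10): Cx3cr1, Cxcr4 and Ccr2. Cxcr4, the receptor of CXCL12, was at 763, 627 and 806 in monoculture and 3154, 2093 and 2777 with TGF-β (log2 fold change 1.84 ± 0.19, adjusted p = 0.000632). Ccr2, the receptor that brings monocytes into tissue, was at 133, 131 and 144 in monoculture and 483, 430.5 and 334 with TGF-β (log2 fold change 1.53 ± 0.20, adjusted p = 0.00102). Of 19 chemokines 2 rose (10.5%; median -0.28). Cxcl14 was at 1812, 2431 and 1371 in monoculture and 5745, 7449 and 4820.0 with TGF-β (log2 fold change 1.69 ± 0.21, adjusted p = 0.00289), and Cxcl16, a membrane-bound chemokine and scavenger receptor, at 5258, 5774 and 5027 in monoculture and 10494, 10426 and 8801 with TGF-β (log2 fold change 0.88 ± 0.09, adjusted p = 0.000212). Ccl3 and Ccl4 had -0.42 and -0.44 and were not called. Only 4 of the 19 chemokines had a log2 fold change above 0, and their summed level was 420131 to 465378 in monoculture and 281054 to 372482 with TGF-β. DESeq2 called 3 of them lower, and 4 were called lower with the length trend removed.

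Calls among cytokine, pathogen and orphan receptors went in both directions. The interleukin 21 receptor gene Il21r was at 2578, 2081 and 2025 in monoculture and 5152, 5609 and 4379 with TGF-β (log2 fold change 1.18 ± 0.11, adjusted p = 8.66e-05). The interleukin 17 receptor chain gene Il17ra rose by 1.09, the bacterial lipopeptide sensor Tlr2 by 0.71, and the orphan receptor gene Gpr160 by 0.93. Il1rl1, the receptor of interleukin 33, went the other way at 1762, 1712 and 1974 in monoculture and 612, 632 and 618 with TGF-β, with 3 nearly equal TGF-β values (log2 fold change -1.53 ± 0.14, adjusted p = 7.82e-05). Among 27 purinergic and orphan receptors 5 rose and none fell (18.5%), and among 22 Toll-like receptors and adaptors 1 rose (4.55%). The test was no longer passed by Il17ra without TGF-β 1 or 2 (adjusted p up to 0.0632).

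Antigen presentation moved in 2 of 17 tested genes (11.8%; median 0.14), both at low levels. H2-Aa, an MHC class II chain, was at 6.49, 6.91 and 6.20 in monoculture and 67.6, 89.6 and 29.5 with TGF-β (log2 fold change 2.03 ± 0.36, adjusted p = 0.00777), and H2-Ob, part of the peptide-loading brake H2-O, at 8.12, 8.06 and 10.8 in monoculture and 36.8, 63.4 and 40.9 with TGF-β (log2 fold change 1.56 ± 0.30, adjusted p = 0.0113). H2-Ab1 was at 177, 57.6 and 110.0 in monoculture and 331, 212 and 252 with TGF-β, without overlap and just short of the threshold (log2 fold change 1.24 ± 0.31, adjusted p = 0.0558). Cd74, H2-Eb1 and the class II activator gene Ciita had 0.24, 0.59 and -0.15. Markers of monocytes moved beside these genes: 3 of 8 tested rose (Ccr2, Spn and F13a1) and 1, Vcan, fell (50% called, against 2.52% of all tested genes). Their summed level was 2626 to 3116 in monoculture and 3568 to 3901 with TGF-β. The defining monocyte genes Ly6c2 and Plac8 averaged at most 0.728 normalized counts in either group. Dendritic cell markers summed to 1056 to 1523 and 1454 to 1701, with none of 6 called by limma, edgeR or DESeq2 (2 at an unadjusted p under 0.05). The part of such cells in the antigen presentation values was not tested. The threshold was missed by H2-Aa without TGF-β 1 (adjusted p = 0.0566), H2-Ob without TGF-β 2 (adjusted p = 0.0551), Spn without monoculture 2 or 3 or TGF-β 1 or 2 (adjusted p up to 0.0923) and F13a1 without monoculture 1 or 3 or TGF-β 2 (adjusted p up to 0.123).

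Lipid genes split in direction. Apoe, the apolipoprotein that carries cholesterol out of macrophages, was at 71342, 68639.9 and 54209 in monoculture and 153808, 167493 and 140740.0 with TGF-β (log2 fold change 1.26 ± 0.13, adjusted p = 0.000179). Its chromosome 7 neighbour Apoc2 rose by 1.21, and Arl4c, Scd2 and Mylip, other targets of the sterol receptor LXR, by 0.63, 0.45 and 0.48. Abcg1, a cholesterol exporter and LXR target as well, fell (4136, 3548 and 3889.9 in monoculture and 2022, 2089 and 2972 with TGF-β; log2 fold change -0.73 ± 0.13, adjusted p = 0.0106), and Abca1 had 0.14. Altogether 5 of 18 LXR and efflux genes rose and 1 fell (33.3%; median 0.14). Of 23 cholesterol synthesis genes 2 rose, Idi1 and Fdps by 0.51 and 0.43, and the median was 0.20.

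Lpl, the lipoprotein lipase that frees fatty acids for uptake, fell. It stood at 552132, 484613 and 500697 in monoculture and 228763, 220047 and 255611 with TGF-β, without overlap (log2 fold change -1.13 ± 0.10, adjusted p = 6.26e-05, 2.18-fold lower). The fatty acid receptor gene Ppard rose by 0.41. Cd36 and Pparg, which act in the same uptake route, had -0.45 and -0.42 and were not called. Gpnmb, a glycoprotein of lipid-laden macrophages, fell by 0.58 from a mean of 394600.0. Of 25 genes of lipid-associated macrophages 3 rose (Apoe, Axl, Syngr1) and 3 fell (Lpl, Gpnmb, Ctsk), a share of 24.0% with a median of 0.04. No call remained for Abcg1 without TGF-β 1 (adjusted p = 0.0745), Mylip without monoculture 1 or 2 or TGF-β 2 (adjusted p up to 0.115), Scd2 without monoculture 1 or 3 or TGF-β 2 (adjusted p up to 0.0974), Idi1 without monoculture 2 or 3 or TGF-β 1 or 2 (adjusted p up to 0.127), Fdps without monoculture 1, 2 or 3 or TGF-β 1 or 2 (adjusted p up to 0.0912), Ppard without monoculture 1, 2 or 3 or TGF-β 1 (adjusted p up to 0.137), Gpnmb without monoculture 1 or TGF-β 1 (adjusted p up to 0.0876) and Syngr1 without monoculture 1, 2 or 3 or TGF-β 1 or 2 (adjusted p up to 0.158).

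Cd5l, a secreted scavenger receptor family protein of macrophages, had the lowest log2 fold change of the called genes after Mgl2. It was at 19890.4, 14786 and 14966 in monoculture and 4298, 4182 and 4045 with TGF-β, with close values within the TGF-β group (log2 fold change -1.97 ± 0.16, adjusted p = 7.82e-05, 3.92-fold lower). The alternative activation lectin genes Mgl2 and Clec10a, neighbours on chromosome 11, fell too. Mgl2 was at 153, 87.5 and 126 in monoculture and 21.8, 32.8 and 6.82 with TGF-β (log2 fold change -2.19 ± 0.36, adjusted p = 0.00501) and Clec10a at 1146, 1195 and 1406 in monoculture and 447, 509 and 625 with TGF-β (log2 fold change -1.24 ± 0.18, adjusted p = 0.00202). With Egr2, a transcription factor induced by interleukin 4, they were 3 of 13 alternative activation genes that fell, while Tgm2 rose (30.8% called; median -0.02). Arg1 and the mannose receptor gene Mrc1 had 0.02 and -0.40. The call was lost for Egr2 without monoculture 1 or 3 or TGF-β 1 or 2 (adjusted p up to 0.0979).

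Among 21 inflammatory mediators 2 fell and none rose (9.52%; median 0.08). Il1rn, the antagonist of the interleukin 1 receptor, was at 16736, 14145 and 13041 in monoculture and 8445, 8609.7 and 6647 with TGF-β (log2 fold change -0.89 ± 0.17, adjusted p = 0.0200), and the anti-inflammatory cytokine gene Il10 at 271, 262 and 284 in monoculture and 149, 98.3 and 166 with TGF-β (log2 fold change -0.97 ± 0.23, adjusted p = 0.0434). Tnf had -0.06, and Il6, with 0 reads in 4 of the 6 libraries, was not tested. Mmp9, a secreted metalloproteinase, had the lowest log2 fold change of all tested genes and did not pass with limma or edgeR, while DESeq2 called it. It was at 1841, 1138 and 2074 in monoculture and 139.8, 279.7 and 336 with TGF-β, without overlap (log2 fold change -2.73 ± 0.59, adjusted p = 0.0619; 0.122 with edgeR and 0.00283 with DESeq2). The test was no longer passed by Il1rn without monoculture 1 or 2 or TGF-β 1 or 2 (adjusted p up to 0.0671) and Il10 without monoculture 1, 2 or 3 or TGF-β 1 or 2 (adjusted p up to 0.173).

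Interferon-stimulated genes gave 4 lower and none higher of 39 (10.3%), with a median of -0.27. The called genes were Ifit2, Oasl2, Cmpk2 and Oasl1, all antiviral effectors, at log2 fold changes of -0.66, -0.48, -0.92 and -0.78. Oasl2, the most abundant of them, was at 7388, 7286 and 8223 in monoculture and 5302, 5306 and 5734 with TGF-β. In 18 of the 39 genes every TGF-β value was below every monoculture value and in 2 above, against 9.64% and 7.27% of all tested genes. DESeq2 called 10 lower, and 17 had an unadjusted p under 0.05. Irf7, Isg15 and Ifit1 had -0.37, -0.40 and -0.78 without passing the test. The threshold was missed by Ifit2 without monoculture 2 or 3 or TGF-β 1 or 2 (adjusted p up to 0.0784), Oasl2 without monoculture 1, 2 or 3 or TGF-β 1 or 2 (adjusted p up to 0.179), Cmpk2 without monoculture 1, 2 or 3 or TGF-β 1, 2 or 3 (adjusted p up to 0.177) and Oasl1 without monoculture 2 or 3 or TGF-β 1 or 2 (adjusted p up to 0.183). Without both monoculture 1 and TGF-β 2 none of the 39 was called, with a median of -0.22.

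Immediate early and stress genes gave 4 lower and none higher of 32 (12.5%; median -0.16): Fosl1, Egr2, Gadd45b and Jund. Fosl1, an AP-1 subunit, was at 1089.5, 855 and 862 in monoculture and 341, 548 and 323 with TGF-β (log2 fold change -1.22 ± 0.30, adjusted p = 0.0486). Plk2, a kinase of the stress response outside that list, was at 33698, 32017 and 33504 in monoculture and 13437, 14936 and 17192 with TGF-β (log2 fold change -1.13 ± 0.12, adjusted p = 0.000250). Fos, Jun and Egr1 had -0.05, -0.15 and 0.34. No call remained for Fosl1 without monoculture 1, 2 or 3 or TGF-β 1 or 3 (adjusted p up to 0.210) and Jund without monoculture 2 or 3 or TGF-β 1 or 2 (adjusted p up to 0.123).

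Called genes of the actin and of the osteoclast list all fell. Of 33 actin and adhesion genes 3 were lower (9.09%; median -0.12). Vcl, which links integrins to actin, was at 12238, 10767 and 11228 in monoculture and 6228, 6296 and 7208 with TGF-β (log2 fold change -0.80 ± 0.09, adjusted p = 0.000347). The motor protein gene Myo1e and the focal adhesion gene Zyx fell by 0.63 and 0.40. Cass4, a focal adhesion scaffold outside that list, was at 3717, 3504 and 3502 in monoculture and 1697, 1353 and 1623 with TGF-β (log2 fold change -1.20 ± 0.17, adjusted p = 0.00202). Of 16 osteoclast and fusion genes 3 fell (18.8%; median -0.19): Src, the protease gene Ctsk and the proton pump subunit gene Atp6v0d2 by 0.94, 0.86 and 1.23. The call was lost for Zyx without monoculture 1 or 2 or TGF-β 1 (adjusted p up to 0.0762), Src without monoculture 2 or 3 or TGF-β 1 or 2 (adjusted p up to 0.0944), Ctsk without monoculture 1, 2 or 3 or TGF-β 1 or 2 (adjusted p up to 0.175) and Atp6v0d2 without monoculture 1 or 3 or TGF-β 1, 2 or 3 (adjusted p up to 0.164).

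Matrix genes were called in 3 of 32 cases (9.38%), 2 higher and 1 lower, and 24 of the 32 passed the filter on the 6 libraries compared. Col14a1, a collagen that binds fibrils, was at 120.2, 206 and 69.0 in monoculture and 819.9, 948 and 579 with TGF-β (log2 fold change 2.57 ± 0.32, adjusted p = 0.00331). Vcan, a large proteoglycan, was at 461, 374 and 375 in monoculture and 207, 179 and 177 with TGF-β (log2 fold change -1.06 ± 0.19, adjusted p = 0.00850). The fibroblast collagen gene Col1a2 was at 35.7, 36.8 and 13.9 in monoculture and 9.77, 30.6 and 13.6 with TGF-β, with overlapping groups. Of 27 matrix proteases and inhibitors, Mmp14 rose and Ctsk fell.

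The Serpinb family of intracellular protease inhibitors gave 3 lower and none higher of 9 (33.3%; median -0.56). Serpinb9b was at 2798, 2682 and 2398 in monoculture and 869, 830.4 and 779 with TGF-β (log2 fold change -1.65 ± 0.15, adjusted p = 6.88e-05), and Serpinb1a and Serpinb1c fell by 0.87 and 0.84. Serpinb6a had 0.04. Among 37 axon guidance and trophic genes 4 fell and none rose (10.8%; median -0.20). The growth factor gene Hbegf was at 427, 403 and 374 in monoculture and 129, 151 and 120.4 with TGF-β (log2 fold change -1.53 ± 0.17, adjusted p = 0.000340). The semaphorin receptor gene Plxna4, the netrin receptor gene Unc5b and the cell adhesion gene Flrt2 fell by 0.88, 0.87 and 1.08. The test was no longer passed by Serpinb1a without monoculture 1 or 2 (adjusted p up to 0.0702), Serpinb1c without monoculture 2 or 3 or TGF-β 1 or 2 (adjusted p up to 0.0796), Plxna4 without monoculture 2 or TGF-β 1 (adjusted p up to 0.0653), Unc5b without monoculture 1, 2 or 3 or TGF-β 1 or 2 (adjusted p up to 0.218) and Flrt2 without monoculture 1, 2 or 3 or TGF-β 1, 2 or 3 (adjusted p up to 0.165).

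Further genes among the 20 that fell most belong to none of the lists. Ctnnd2, a catenin of dendrites, was at 6229, 5622 and 5736 in monoculture and 1841, 1825 and 2366 with TGF-β (log2 fold change -1.55 ± 0.28, adjusted p = 0.0201). Syn1, which encodes synapsin of synaptic vesicles, was at 4511, 5126 and 3899.9 in monoculture and 2005, 1571 and 2195 with TGF-β (log2 fold change -1.23 ± 0.20, adjusted p = 0.00886), and Cpe, a processing enzyme of peptide hormones, at 6201, 6313 and 6387 in monoculture and 2166, 2373 and 2732 with TGF-β (log2 fold change -1.38 ± 0.16, adjusted p = 0.000350). Of 6 tested sensory neuron markers none was called by limma, edgeR or DESeq2 (2 at an unadjusted p under 0.05), and 5 passed the filter on the 6 libraries compared. The list summed to 8826 to 10176 in monoculture and 8138 to 10788 with TGF-β, against 620 to 908 in co-culture with DRG neurons. Of its 19 members in the table, 6 were at 0 in all 6 libraries compared. The sum can thus be set by few abundant members and does not describe the list as a whole. The neuron tubulin gene Tubb3 averaged 27.0 in monoculture and 11.2 with TGF-β. Ptchd1 and the receptor gene Fgfr1 fell by 1.16 and 1.29. The threshold was missed by Ctnnd2 without monoculture 2 or 3 or TGF-β 1 or 2 (adjusted p up to 0.0890).

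Metabolic lists moved by little. Of 27 glycolysis and hypoxia genes 4 fell and none rose (14.8%; median -0.19): Ndrg1, the glucose transporter gene Slc2a1, Pfkp and the hexokinase gene Hk3, by 0.70, 0.54, 0.49 and 0.43. Of 30 respiratory chain genes none was called by limma or edgeR and 2 by DESeq2, and 10 had an unadjusted p under 0.05. In 24 of the 30 the log2 fold change was above 0, and the median was 0.22. This list holds short transcripts (median exon length 2208.5 bases, against 3693.5 over tested genes), and with the length trend removed its median was 0.12, with 25 members above 0. Without TGF-β 3, 10 of its members were called higher, in the fit with the most calls over all genes among those leaving out 1 library. Of 46 cell cycle genes 2 rose, Tk1 by 0.41 and the cyclin gene Ccnd2 by 1.24, and Cdk6 fell by 0.44 (6.52%; median 0.11), and without TGF-β 3 there were 6 higher and 1 lower. Of 36 lysosome genes 3 rose and 1 fell (11.1%; median -0.04), among them the protease genes Ctsc and Ctsh, which rose by 0.85 and 0.64, and the proton pump gene Atp6v1b2, which fell by 0.44. No call remained for Ndrg1 without monoculture 1, 2 or 3 or TGF-β 1, 2 or 3 (adjusted p up to 0.144), Slc2a1 without monoculture 1 or 2 or TGF-β 1, 2 or 3 (adjusted p up to 0.192), Pfkp without TGF-β 1 (adjusted p = 0.0645), Hk3 without monoculture 1, 2 or 3 or TGF-β 1 or 2 (adjusted p up to 0.197), Tk1 without monoculture 2 or TGF-β 1 or 2 (adjusted p up to 0.0564), Ccnd2 without monoculture 1 or 3 or TGF-β 1 (adjusted p up to 0.0603), Cdk6 without monoculture 1 or 2 or TGF-β 1 or 2 (adjusted p up to 0.137) and Atp6v1b2 without monoculture 2 or TGF-β 1 (adjusted p up to 0.0753).

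Other lists held few calls. Of 39 macrophage lineage transcription factors only Egr2 was called, and Spi1, Pparg and Klf4 had -0.02, -0.42 and -0.51. By limma or edgeR none of 20 colony-stimulating factor receptor and signalling genes, 16 MHC class I genes or 15 annexin and S100 genes was called. At an unadjusted p under 0.05 there were 6, 1 and 6 in these lists, and DESeq2 called 1 higher and 1 lower, 0, and 1 higher and 2 lower. Endothelial markers gave 2 lower of 7: Kdr, a VEGF receptor gene also present in some macrophages, at 2004, 2296 and 1856 in monoculture and 1219, 1171 and 1068 with TGF-β (log2 fold change -0.82 ± 0.13, adjusted p = 0.00310), and Eng. Their endothelial companions Cdh5 and Pecam1 averaged 101 and 41.0 in monoculture. Of 17 glial markers, the potassium channel gene Kcnj10 was higher and Egr2 and the adhesion gene L1cam lower. The call was lost for Kcnj10 without monoculture 2 or 3 or TGF-β 2 (adjusted p up to 0.102) and L1cam without monoculture 1, 2 or 3 or TGF-β 1 or 2 (adjusted p up to 0.193). Without both monoculture 1 and TGF-β 2, no member was called of the inflammatory, immediate early, osteoclast, glycolysis, cholesterol synthesis or cell cycle list, in a fit with fewer libraries whose medians for these lists were -0.11, -0.18, -0.15, -0.20, 0.18 and 0.15. Of the fits that left out 1 library, the one without TGF-β 3 called the most genes over all tested genes. In it, 6 genes of the tyrosine motif receptor list, 5 macrophage identity genes and 4 cholesterol synthesis genes were called higher, and 4 matrix genes lower. With all libraries kept these counts were 2, 2, 2 and 1.

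**Figure D4:**
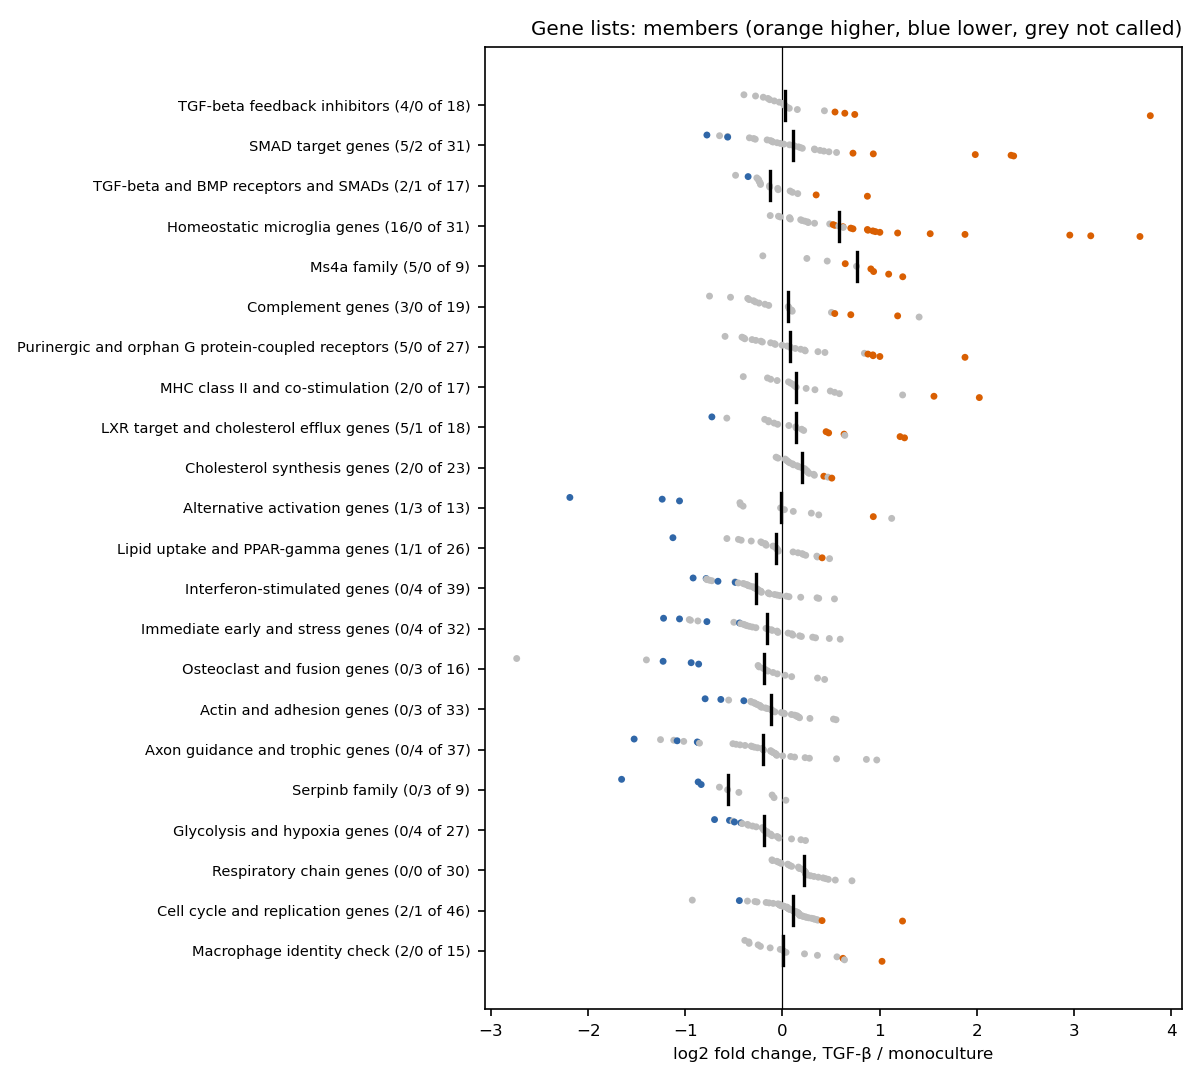
Log2 fold change of TGF-β over monoculture (x axis) for the tested members of 22 gene lists (y axis, with the number higher and lower of those tested in parentheses); orange and blue points were called higher and lower, grey points were not called, and black bars are medians. The Ms4a family and homeostatic microglia genes have medians of 0.76 and 0.58, and most other medians lie near 0.

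Levels with co-culture stand beside these values, with the direct test of co-culture against TGF-β, which called 4128 of 16328 genes (25.3%) and 328 of the 412 called genes. Fcrls was at 618, 5610.0 and 103820.0 ± 6581 (SD) on average in monoculture, TGF-β and co-culture, and co-culture exceeded TGF-β by 4.21 ± 0.12 on the log2 scale, adjusted p = 5.27e-11. Pmepa1 averaged 417 with TGF-β and 21474 ± 2406 in co-culture (5.76 ± 0.43 on the log2 scale, adjusted p = 1.94e-05). Cx3cr1 was closer, at 4217 and 9859 ± 1787 (1.23 ± 0.16 on the log2 scale, adjusted p = 8.93e-05). Lpl had 234807 with TGF-β against 19338 ± 1619 in co-culture (-3.60 ± 0.10 on the log2 scale, adjusted p = 3.66e-11). Fibroblast markers moved with the co-culture libraries (summed levels of 8321 to 11838, against 39.8 to 153 with TGF-β), and their part in these differences was not tested. Because both treatments are set against the same monoculture libraries, their 2 effects are not independent.

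For 84 of the 412 called genes the difference between the 2 treatments was not called. The 4 given here were chosen after their values were seen. Cxcl14 averaged 6005 with TGF-β and 5758 ± 486 in co-culture (co-culture minus TGF-β -0.04, 95% interval -0.51 to 0.43). Axl averaged 2884 and 3697 ± 391 (0.39, 95% interval -0.15 to 0.92), Hpgd 529 and 675 ± 129 (0.36, 95% interval -0.13 to 0.84), and Gpnmb 263573 and 243550.0 ± 20506 (-0.12, 95% interval -0.35 to 0.12). These intervals leave room for differences in either direction.

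For 22 called genes, TGF-β gave a level outside the range between the other groups, with co-culture against TGF-β called too. Both calls rest on the same TGF-β libraries, so the second is not independent of the first. Of these, 10 lay above the median level of tested genes and were no histone genes or numbered models, and the 6 of largest change among the 10 are given. Cd109, a co-receptor that binds TGF-β, averaged 2252 in monoculture, 3984 with TGF-β and 1608 ± 244 in co-culture (log2 fold change 0.82 ± 0.12, adjusted p = 0.00176; co-culture minus TGF-β -1.31 ± 0.12 on the log2 scale, adjusted p = 1.67e-06). Alox5, the 5-lipoxygenase of leukotriene synthesis, averaged 1245, 2058 and 1492 ± 123, and the sialomucin gene Spn 1856, 2602 and 1187 ± 110.2. Lower with TGF-β than in either other group were Eps8, an actin regulator (12725, 8127 and 10956 ± 1224), Pitpnc1, a lipid transfer protein gene (5554, 3818 and 5469 ± 851), and Ttc39b (2701, 1931 and 3155 ± 268). Below that level, H2-Aa was higher with TGF-β than in co-culture (-1.83 ± 0.36 on the log2 scale, adjusted p = 0.00171), and Hbegf was lower (0.79 ± 0.17 on the log2 scale, adjusted p = 0.00403). The test was no longer passed by Spn without monoculture 2 or 3 or TGF-β 1 or 2 (adjusted p up to 0.0923) and Ttc39b without monoculture 1 or 3 or TGF-β 1 or 2 (adjusted p up to 0.106).

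**Figure D5:**
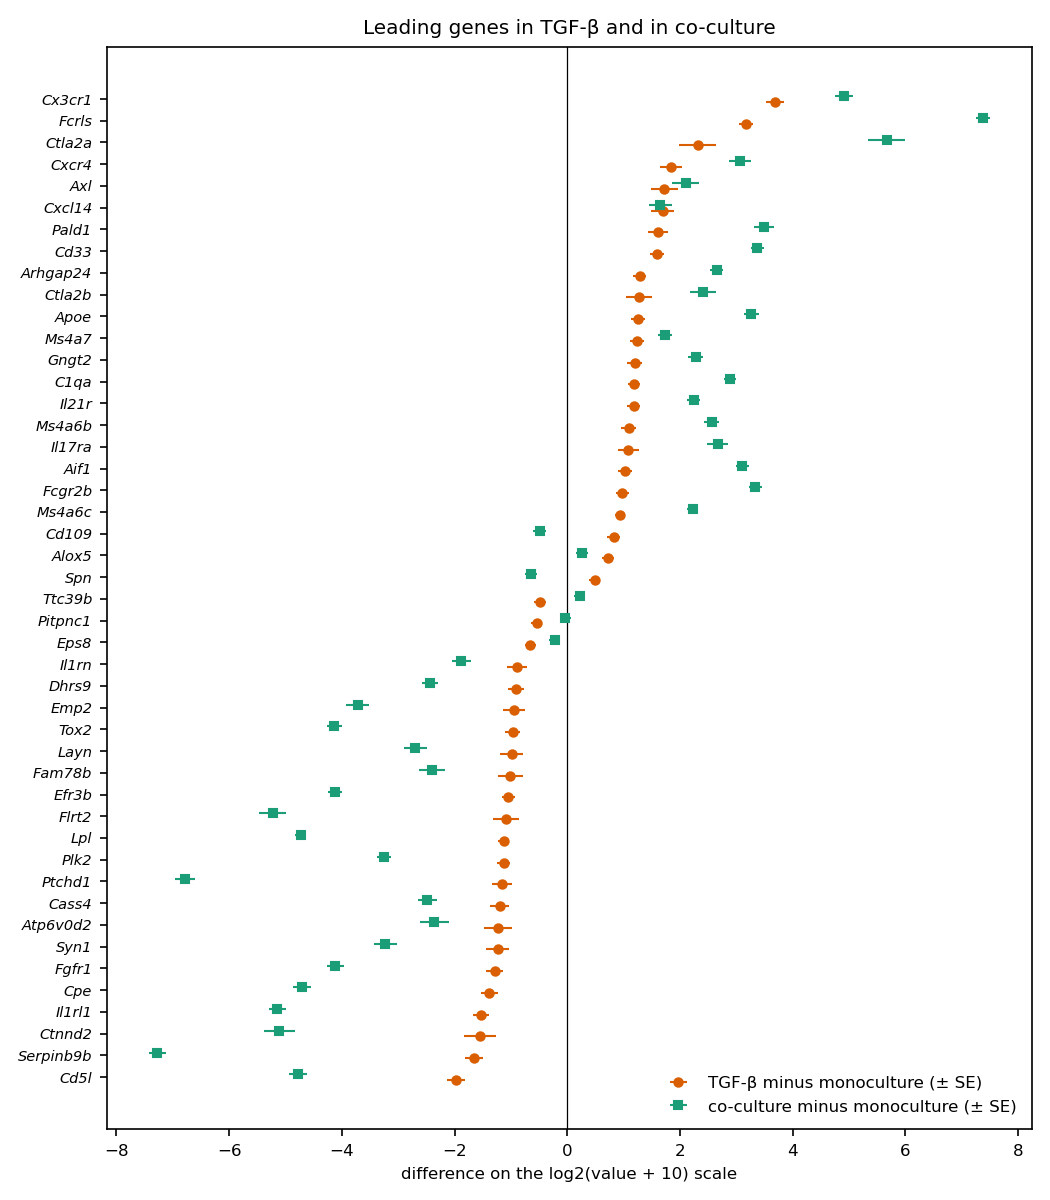
Differences from monoculture on the log2(value + 10) scale (x axis) for the 20 genes rising most, the 20 falling most and the 6 outside the range of the other groups (y axis), for TGF-β (orange circles) and co-culture (green squares), with bars of 1 SE. Cxcl14 and Axl nearly coincide, Cd109 and Spn lie on opposite sides of 0, and Serpinb9b, Ptchd1 and Fcrls lie farthest apart.

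The stretch of 250 bases before the RefSeq start site was read for the leading genes, to show what sequence lies before genes that moved. Windows overlapping an exon of the GENCODE annotation were passed over, among them those of Cx3cr1 and Fcrls. Those shown belong to the 2 highest-ranked rising and the 2 highest-ranked falling genes that remained. Ctla2a, a cathepsin inhibitor gene with a close copy in Ctla2b, was at 472, 439.7 and 423 in monoculture and 2821, 2941 and 1391 with TGF-β (log2 fold change 2.32 ± 0.33, adjusted p = 0.0110). Its window is chr13:60936626-60936875 (minus strand), and those of Cxcr4, Cd5l and Serpinb9b are chr1:128592300-128592549 (minus), chr3:87357631-87357880 (plus) and chr13:33027164-33027413 (plus), all in GRCm38.p6 and printed 5′ to 3′ on the gene's strand. Capitals mark matches, on either strand, to the SMAD box with flanking bases CAGACA, the palindromic SMAD element GTCTAGAC, the AP-1 site TGANTCA and the PU.1 site GAGGAAGT.
Ctla2a: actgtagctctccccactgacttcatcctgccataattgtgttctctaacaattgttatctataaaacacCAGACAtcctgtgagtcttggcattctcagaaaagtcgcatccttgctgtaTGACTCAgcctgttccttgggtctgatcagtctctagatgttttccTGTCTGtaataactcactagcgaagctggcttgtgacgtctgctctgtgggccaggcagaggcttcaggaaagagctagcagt
Cxcr4: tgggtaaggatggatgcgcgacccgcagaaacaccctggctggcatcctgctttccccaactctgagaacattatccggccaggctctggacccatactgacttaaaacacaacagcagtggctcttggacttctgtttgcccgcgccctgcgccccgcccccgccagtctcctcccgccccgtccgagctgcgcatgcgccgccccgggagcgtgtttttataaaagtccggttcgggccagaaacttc
Cd5l: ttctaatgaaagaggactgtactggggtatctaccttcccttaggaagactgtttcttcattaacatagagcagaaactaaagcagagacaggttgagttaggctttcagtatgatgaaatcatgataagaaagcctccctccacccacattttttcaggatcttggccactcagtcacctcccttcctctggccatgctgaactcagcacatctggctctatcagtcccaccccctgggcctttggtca
Serpinb9b: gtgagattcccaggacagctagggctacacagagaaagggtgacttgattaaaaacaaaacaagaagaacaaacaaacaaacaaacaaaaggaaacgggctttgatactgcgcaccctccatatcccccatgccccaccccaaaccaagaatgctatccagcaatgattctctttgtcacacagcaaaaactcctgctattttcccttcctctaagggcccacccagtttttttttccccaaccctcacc
Ctla2a holds the SMAD box 180 and 83 bases and the AP-1 letters 129 bases before the start, and the other 3 windows hold none of the 4 motifs. Over 10261 tested genes with a window in the RefSeq table, 13.4% held CAGACA, 4.41% TGANTCA, 2.70% GAGGAAGT and 0.166% GTCTAGAC. Of 132 windows of genes that rose, 11.4%, 4.55% and 4.55% held the former 3, and of 166 windows of genes that fell 19.3%, 8.43% and 3.01%. None of these windows held GTCTAGAC. The motif letters were counted without a test, and a match is not a bound site.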

How the data were processed

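Bulk RNA of sorted macrophages was measured in 9 libraries, and the 6 from monoculture and TGF-β make up the comparison. The authors deposited 1 table of 24607 genes whose signal values are read counts divided by a size factor per library. The submitters' processing notes name bcl2fastq 2.20, STAR 2.7.3, DESeq2 1.24.0, R 3.6.1 and mm10, without a role or order. The counting program and its use of strand are not given in the sources used here. Whole reads were recovered for 100% of values within 0.05, and served only for the alternatives with edgeR 4.0.16 and DESeq2 1.42.0.

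The main test was limma 3.58.1 (R 4.3.3, robust, with a mean trend) on log2(value + 10), fitted to all 9 libraries over genes with at least 10 in at least 3 libraries, with Benjamini-Hochberg adjustment. The pseudocount shrinks the fold changes of low genes. Of 24607 gene identifiers 24335 matched GENCODE M21, from which exon lengths were taken. The test was checked on simulated data, with 50 genes changed at each of 4 sizes. It recovered 30%, 72%, 88% and 94% of them at true log2 changes of 0.5, 1, 2 and 3. Of 15762 unchanged genes it called 10. A gene that was not called may thus still have changed, above all by a small amount. Each gene was drawn independently, without a length trend or other difference shared by the genes of a library. The 10 calls therefore do not measure false calls in the real libraries.

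Named genes were set genes, the 20 rising and 20 falling most above the median level without overlap, the 4 of smallest p in each list with called members against its direction, abundant genes above 2-fold, and those outside the range of the other groups. Other list members given were chosen after their values were seen. Members and lists were chosen with earlier results of these data known. Alternatives were other pseudocounts, filters, scalings, tools, libraries left out, a replicate block and, added after the data were seen, a fit without monoculture 1 and TGF-β 2 and a fit with the length trend removed. Promoter sequences are from RefSeq (GRCm38.p6). Results for some genes are not reported here.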

Additional observations from a re-analysis of the deposited data

How the results depend on the processing

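The count of 412 called genes (185 higher, 227 lower) stayed within 1.5 times under other pseudocounts, filters and scalings, with 6 libraries alone, with edgeR and with the length trend removed. DESeq2 called 897 (423 and 474) and included 407 of the 412. Without both monoculture 1 and TGF-β 2, 150 (96 and 54) were called. Leaving out 1 library gave 165 to 935 genes, 92 to 496 higher and 73 to 439 lower, with both ends set by TGF-β 1 and TGF-β 3. With the replicate number as a block 397 were called (189 and 208), and with the replicate block in the 6 libraries alone 799 (322 and 477). Same-numbered deviations correlated at 0.12, 0.01 and 0.37, so the numbers were not taken to pair the samples, although replicate 1 is male and replicates 2 and 3 are female in both groups. The replicate block in the 6 libraries alone called 33 of 84 named genes that were not called without it in all 9 libraries. None of the 124 called named genes changed sign under any alternative run, and 8 of the 88 not called did, among them Csf1r (0.04, and -0.03 without TGF-β 3) and Tmem119 (0.20, and -0.16 without monoculture 2). Of the 124, 70 to 116 kept the call when 1 library was left out and 114 did with edgeR. The cause of these changes was not tested. At the depths of these 6 libraries, 3 reads equal 2.25 to 6.82 normalized counts.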

Other observations

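Further called genes, named after their values were seen, lie outside the lists described. Nt5e, the ectoenzyme CD73 that makes adenosine from AMP, averaged 49.7 in monoculture and 268 with TGF-β (log2 fold change 2.21). Adcy2, an adenylate cyclase gene, averaged 162 and 715 (2.09), and Cspg4, a membrane proteoglycan gene, 226 and 889 (1.98). Abi3, an adaptor of actin regulators, averaged 341 and 887 (1.35), Cd24a, a small glycoprotein, 191 and 604 (1.59), and Tnfsf8, the ligand of CD30, 84.8 and 277 (1.55). Ramp1, a subunit of the receptor of the neuropeptide CGRP, averaged 239 and 617 (1.31). Calcrl, another subunit of that receptor, went the other way. In the limma fit without monoculture 1 and TGF-β 2, Calcrl had -0.68 (adjusted p = 0.0357) and Ramp1 1.14 (adjusted p = 0.0628). In the other direction, the coagulation factor gene F7 averaged 348 and 136 (-1.29), and Slc18a1, a vesicular monoamine transporter gene, 232 and 87.5 (-1.31). Calcrl aside, these 9 genes passed the threshold in all 6 fits that left out 1 library. In the limma fit without monoculture 1 and TGF-β 2, Cspg4, F7 and Slc18a1 missed it, as Ramp1 did (adjusted p = 0.0516, 0.0536 and 0.0666).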
